A study of Mus musculus with 56 samples.

Results

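The nucleic acid sensors described here were 10 genes whose products detect RNA or DNA, or relay that detection. They were the endosomal receptors Tlr3, Tlr7 and Tlr9 with the adaptor Myd88, the RNA helicases Ddx58 (RIG-I), Ifih1 (MDA5), Dhx58 (LGP2) and Ddx60, the Z-form nucleic acid sensor Zbp1, and the RNA-activated kinase Eif2ak2 (PKR). A gene was taken as measured where a probe set of the array was annotated to it and to no other gene. All 10 genes were found, with 21 probe sets, among 18194 genes measured by 34958 such probe sets. Values below are intensities of the probe set with the highest mean log2 intensity of each gene, unless another probe set is named.

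Liver RNA came from male CD-1 mice aged 6 to 8 weeks at the start of dosing. The mice received LNA gapmers, antisense oligonucleotides with locked nucleic acid ends and a DNA centre, under the skin at 25 mg/kg in 10 mL/kg. NTS-1 is labelled non-toxic, TS-2 toxic and HTS-3 severely toxic, and the control mice received the vehicle, DPBS. After 1 dose, livers were taken at 8 h (3 NTS-1, 4 TS-2, 3 HTS-3 and 3 vehicle mice), 16 h (4 NTS-1, 3 TS-2, 4 HTS-3 and 3 vehicle mice) and 72 h (3 NTS-1, 4 TS-2 and 3 vehicle mice). Mice given HTS-3 died or were moribund before 72 h. In the repeated-dose arm, doses were given on days 1, 4, 8 and 11 and livers taken on day 14 from 4 NTS-1, 5 TS-2 and 10 vehicle mice. Of 10 mice dosed per group and time in the single-dose arm, the livers put on arrays were those ranking highest for a minor hypertrophy score, so these groups are not a random draw of the treated mice. Every group was of 1 sex and 1 strain, and 1 HTS-3 mouse titled as 8 h has a description that says 16 h; it is kept at 8 h.

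Toll-like receptors read nucleic acids inside endosomes, TLR3 double-stranded RNA, TLR7 single-stranded RNA and TLR9 DNA with unmethylated CpG, and TLR7 and TLR9 signal through MyD88. RIG-I and MDA5 read RNA in the cytosol and signal through the mitochondrial adaptor MAVS, while LGP2 lacks the signalling domains and modulates them. Several of these genes are themselves induced by type I interferon, through the promoter motif called the interferon-stimulated response element.

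That motif was searched for because the members described below moved together after 1 gapmer. In the 250 bases before the start of each gene in the RefSeq promoter table (GRCm38.p6), 7 of the 10 members had an entry; Tlr7, Dhx58 and Zbp1 did not. Its core, written as GAAA, any 2 bases and GAAA and searched on both strands, was present for 2 of the 7, Ddx60 with 2 matches and Myd88 with 1, and it is present in 2.98% of 32851 windows of that length in the table. The stretches holding these matches are shown, on the strand of the gene and with the core in capitals, from chr8:61928025-61928084 (plus strand) for Ddx60 and chr9:119340025-119340084 (minus strand) for Myd88.
Ddx60: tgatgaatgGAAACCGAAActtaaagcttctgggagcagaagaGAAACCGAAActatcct
Myd88: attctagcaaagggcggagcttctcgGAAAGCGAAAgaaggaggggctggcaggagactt
The Ddx60 matches began at positions -53 and -19 from the start in that table and the Myd88 match at -40. For Ddx60 and Tlr3 that start lies inside the annotated span of the gene. The end of the Ddx60 window and the whole Tlr3 window therefore overlap the gene. The window of Myd88 also held TTCNNNGAA, the core of the interferon gamma-activated site, which overlaps the match above, and so did that of Eif2ak2; 7.02% of windows hold it. The NF-kappaB core, written as GGGA, any 4 bases and CC, was found for Tlr3 and Eif2ak2, and in 17.63% of windows. None of these 3 motifs was found in the windows of Ddx58, Ifih1 and Tlr9, which describes only these letters in these windows.

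Single-dose and repeated-dose arrays may have been normalised apart, so levels are compared only within each set. Intensities under 32 are called dim here. On single-dose arrays 32.1 to 33.3% of probe sets reached 32, and on repeated-dose arrays 54.3 to 57.5% did. Of 9 hepatocyte markers measured, 8 reached 32 on at least 3 single-dose arrays and all 9 on repeated-dose arrays. In whole-liver RNA, fewer cells of a type and less RNA per cell cannot be told apart.

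At 8 h after 1 dose, 6 of the 10 members were higher in NTS-1 livers than in vehicle livers by limma with Benjamini-Hochberg adjustment over all genes (adjusted p threshold 0.05): Ddx58, Ifih1, Dhx58, Ddx60, Zbp1 and Eif2ak2. Over all genes tested, 0.506% were called higher in that comparison and 0.61% in either direction. The median log2 change was 1.95 over the members and 0 over all genes.

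**Figure D1:**
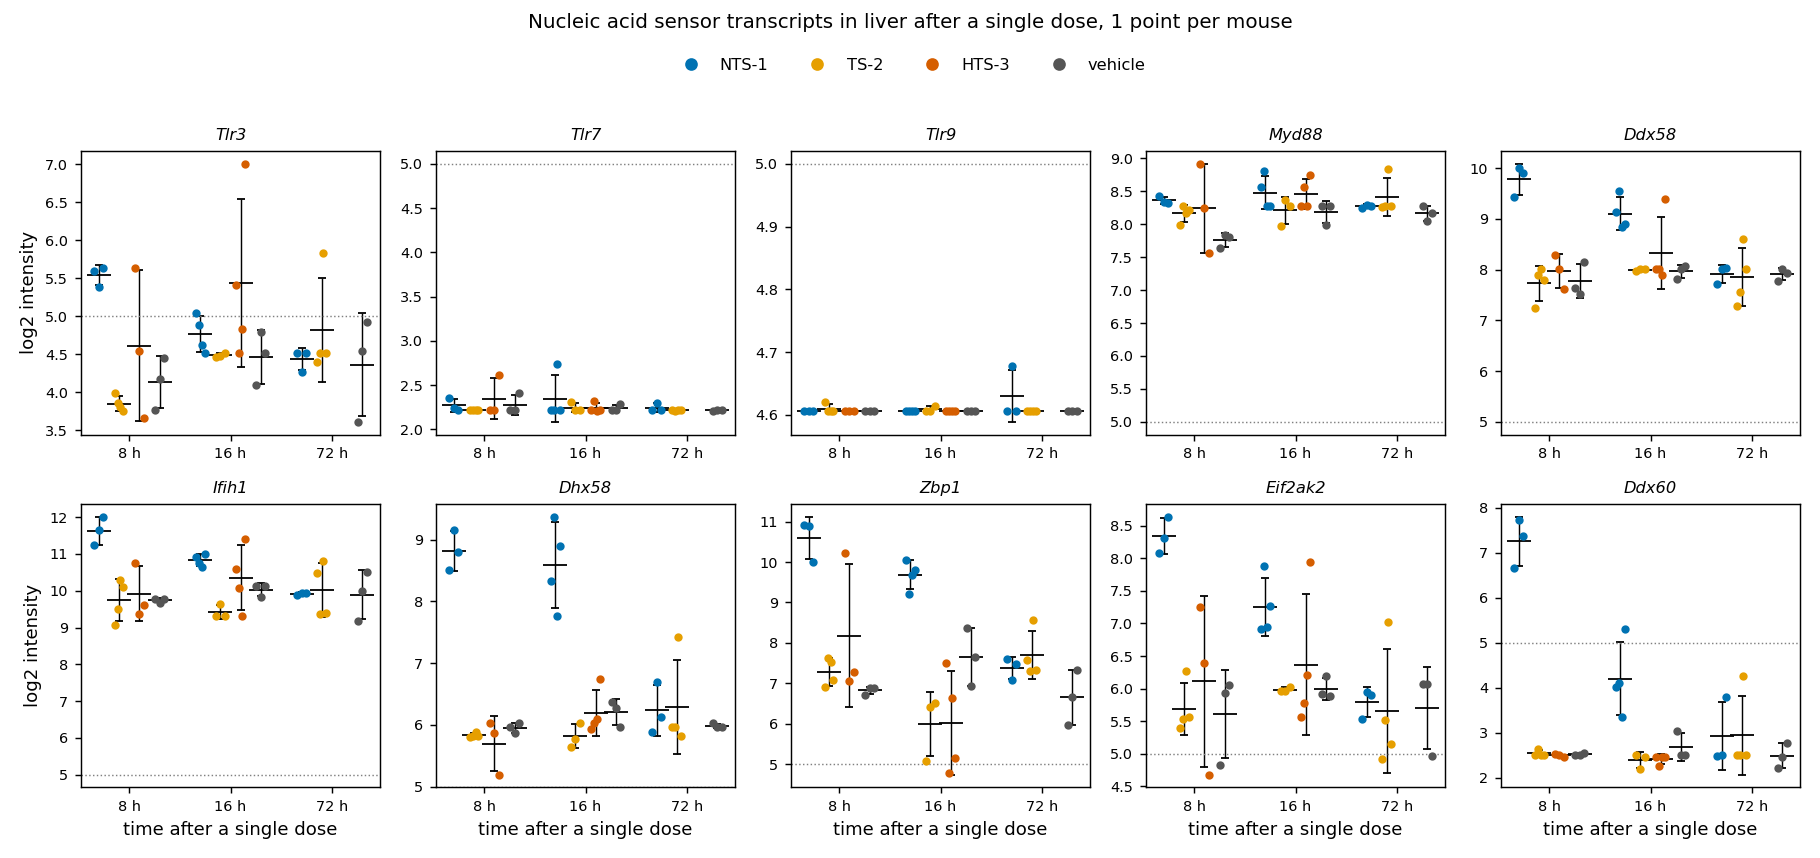
Log2 intensity of each sensor in every single-dose liver, by gapmer and time, with vehicle on the right of each time (points are mice, bars the mean ± SD, the dotted line the log2 of 32). At 8 h the NTS-1 points of Ddx58, Ifih1, Dhx58, Zbp1, Eif2ak2 and Ddx60 lie above every vehicle point, and at 72 h no member separates NTS-1 from vehicle livers.

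Among the cytosolic helicases, Ddx58, which senses RNA with a 5' triphosphate, had intensities of 694.77, 1032.98 and 952.62 in NTS-1 livers at 8 h, against 199.4, 183.57 and 284.51 in vehicle livers. The groups lay wholly apart, and the log2 change was 2.01 ± 0.32 (SE, 3 mice each, 4.03-fold, limma adjusted p = 0.000356). Ifih1, the sensor of long double-stranded RNA, had 2428.73, 3229.88 and 4116.02 in NTS-1 livers, against 869.83, 817.11 and 881.18 in vehicle livers. The lowest NTS-1 mouse was again above the highest vehicle mouse, with a log2 change of 1.90 ± 0.43 (3.72-fold, limma adjusted p = 0.0301). This call was lost when any 1 of the 6 mice was left out, with limma adjusted p-values of 0.0504 to 0.0967.

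Dhx58, the regulator of both sensors, had 364.44, 571.71 and 444.82 in NTS-1 livers, against 62.43, 58.49 and 65.01 in vehicle livers. Its 3 NTS-1 mice were all far above the narrow vehicle range, and the log2 change was 2.87 ± 0.345 (7.31-fold, limma adjusted p = 5.7e-06). Ddx60, an antiviral helicase of the SKI2-like kind, had 101.83, 213.5 and 166.41 in NTS-1 livers, against 5.7, 5.7 and 5.89 in vehicle livers. The vehicle livers were dim on this probe set, so the change is given as at least 4.80-fold, with vehicle values taken as 32 (limma adjusted p = 1.71e-08).

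Zbp1, which binds Z-form nucleic acids and can start necroptosis, had 1926.9, 1904.68 and 1019.3 in NTS-1 livers, against 104.98, 117.84 and 117.71 in vehicle livers. All 3 NTS-1 mice were far above the vehicle mice, with a log2 change of 3.78 ± 0.65 (13.7-fold, limma adjusted p = 0.00134). Eif2ak2, the kinase that stops translation when bound to double-stranded RNA, had 271.87, 318.45 and 399.76 in NTS-1 livers, against 28.39, 61.15 and 66.24 in vehicle livers. The groups did not overlap, and the log2 change was 2.74 ± 0.57 (6.70-fold, limma adjusted p = 0.0121). Without vehicle mouse 1, the lowest vehicle mouse, or without NTS-1 mouse 3, the highest NTS-1 mouse, the limma adjusted p of Eif2ak2 was 0.0778 or 0.0617.

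The endosomal receptors and their adaptor did not pass the test at 8 h. Tlr3 had 48.36, 41.97 and 49.54 in NTS-1 livers, against 13.64, 18.11 and 21.79, all dim, in vehicle livers. The groups lay apart, but the log2 difference of 1.41 ± 0.47 had a limma adjusted p of 0.434. Myd88 had 344.34, 324.16 and 320.91 in NTS-1 livers, against 198.7, 227.79 and 224.65 in vehicle livers. These groups also lay apart, with a log2 difference of 0.61 ± 0.21 (limma adjusted p = 0.523). Tlr7 was dim on every single-dose array, at 4.63 to 6.69. Tlr9 was dim as well, at 24.36 on 34 of 37 arrays and at most 25.59, so a change in either receptor gene could not be seen on these arrays.

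When only the 6 mice of this comparison were fitted, 0 members passed, so the calls at 8 h rest on the spread estimated over all 37 single-dose arrays. Markers of other cells were read beside them. Of 9 plasmacytoid dendritic cell markers 0 passed, with 7 of them, Siglech among them, dim in both groups and summed intensities of 363 to 393 in NTS-1 livers and 348 to 362 in vehicle livers. Of 10 Kupffer cell markers 0 passed, yet their sums of 20490 to 29900 in NTS-1 livers lay above the 15100 to 17720 of vehicle livers. Of 9 monocyte and macrophage markers 1 passed, Fcgr1, and the sums of 5085 to 11440 in NTS-1 livers overlapped the 4268 to 5887 of vehicle livers. The part of these cells in the sensor changes was not tested.

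Fewer sensors passed after NTS-1 at later times. At 16 h Dhx58 alone passed, where 0.126% of all genes were called higher and 0.148% in either direction. It had 321.88, 663.11, 217.89 and 477.73 in NTS-1 livers, against 82.67, 77.01 and 62.43 in vehicle livers. All 4 NTS-1 mice stayed above the vehicle mice, with a log2 change of 2.39 ± 0.32 (5.25-fold, limma adjusted p = 0.000236). When only the compared mice were fitted 0 members passed at 16 h, and array weights gave 5 and quantile normalization 2. Zbp1 had 1066.76, 592.02, 824.1 and 897.52 in NTS-1 livers, against 330.27, 121.38 and 200.4 in vehicle livers. These groups lay apart too, but the log2 difference of 2.05 ± 0.61 had a limma adjusted p of 0.585. Vehicle mouse 1, the highest vehicle mouse for Zbp1, stood apart in neutrophil markers, whose summed intensity was 27940 in it and 233.6 and 484 in the other vehicle mice. Across the vehicle livers at 16 h, Kupffer cell markers summed to 21070, 21860 and 47110. Monocyte and macrophage markers summed to 3902, 6085 and 17630. The part of this spread in the 16 h comparisons with vehicle was not tested.

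Ddx58 at 16 h had 566.18, 748.99, 455.57 and 474.76 in NTS-1 livers, against 226.32, 258.49 and 268.61 in vehicle livers (limma adjusted p = 0.244). Ifih1, Eif2ak2 and Ddx60 also had every NTS-1 mouse above every vehicle mouse at 16 h without passing, and 3 of the 4 NTS-1 mice were dim for Ddx60. The share of all genes with groups apart in this way was not counted. At 72 h, 0 members passed, with 0% of all genes called in either direction by limma. At an unadjusted p of 0.05, 1 member, Tlr9, fell under the threshold at 72 h, and it was dim in both groups. Of all 18194 genes, 793 fell under that threshold.

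The change between times was tested as the NTS-1 effect at the later time minus that at 8 h. From 8 to 16 h Ddx60 passed, with a log2 difference of effects of -3.23 ± 0.55 (limma adjusted p = 0.00995), where 0.0715% of all genes were called lower. From 8 to 72 h Ddx60 (-4.30 ± 0.57, limma adjusted p = 0.000151) and Dhx58 (-2.62 ± 0.49, limma adjusted p = 0.00859) passed, where 0.192% were called lower. Ddx60 was dim in every single-dose vehicle liver and in every NTS-1 liver at 72 h, so the sizes of its differences of effects rest on values under 32 and are not measured sizes. When only the compared groups were fitted, the 16 h minus 8 h call of Ddx60 was lost. For the HTS-3 effect at 16 h minus that at 8 h, 0 members passed by limma, where 1.32% of all genes were called in either direction. At an unadjusted p of 0.05, 1 member was under the threshold, Zbp1, with a log2 difference of effects of -2.98 (limma adjusted p = 0.11). Of all 18194 genes, 1756 were under that threshold. The NTS-1 effect on Dhx58 at 16 h minus that at 8 h was -0.48, with a 95% interval of -1.45 to 0.49.

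**Figure D2:**
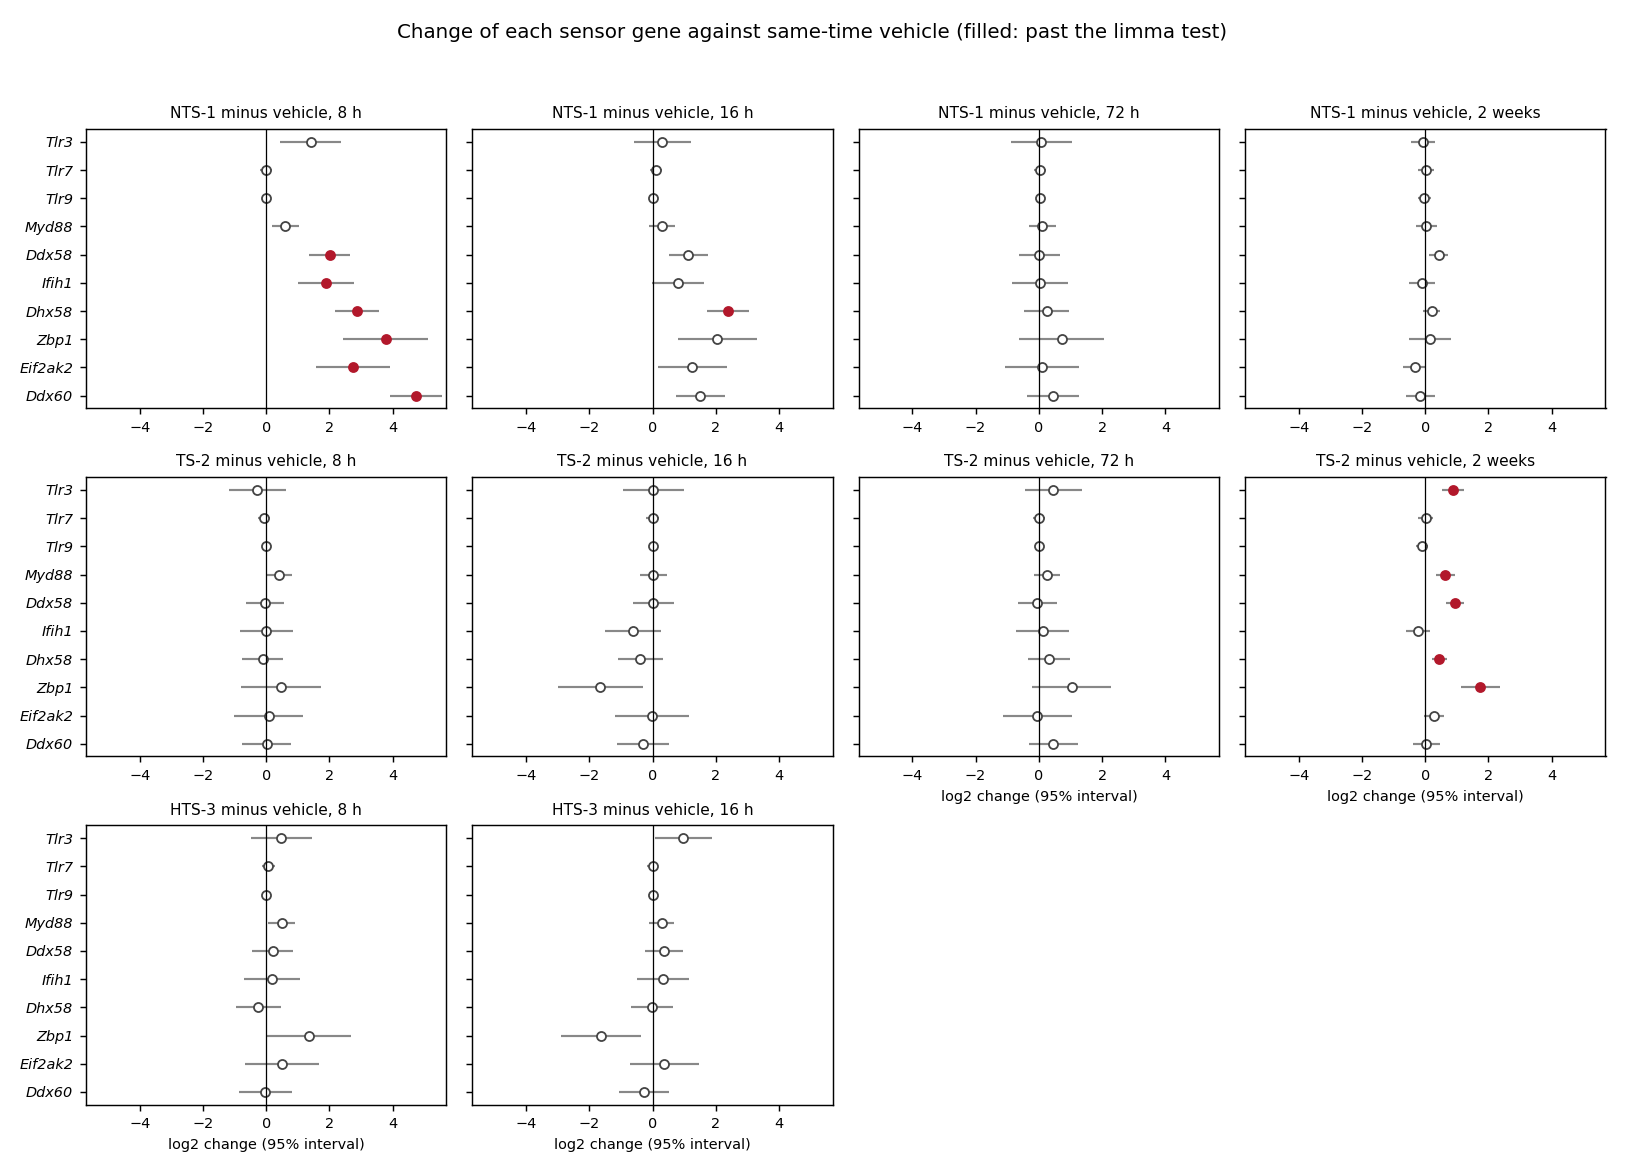
Log2 change of each sensor against the same-time vehicle livers, with 95% intervals, for each gapmer and time (filled symbols passed the limma test at an adjusted p of 0.05; single-dose Ddx60 values are taken against dim vehicle livers). Filled symbols stand at NTS-1 8 h for 6 members, at NTS-1 16 h for Dhx58 and at TS-2 2 weeks for 5 members.

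A single dose of TS-2 changed 0 of the 10 members at 8, 16 or 72 h, where 0.044%, 0.0165% and 0.137% of all genes were called in either direction by limma. At an unadjusted p of 0.05, 1 member was under the threshold at 8 h, 1 at 16 h and 0 at 72 h. Of all 18194 genes, 942, 792 and 769 were under it at these times. At 8 h the groups of 2 members lay apart without passing, and how many of all genes lay apart was not counted. Myd88 had 252.75, 310.21, 289.06 and 298.58 in TS-2 livers, against 198.7, 227.79 and 224.65 in vehicle livers (log2 difference 0.40 ± 0.20, limma adjusted p = 0.963). Zbp1 had 120.22, 197.66, 185.42 and 135.4 in TS-2 livers, against 104.98, 117.84 and 117.71 in vehicle livers (0.46 ± 0.61, limma adjusted p = 1). Every TS-2 mouse was above every vehicle mouse for both. Ifih1 at 8 h had 536.67, 728.1, 1260.96 and 1105.8 in TS-2 livers, against 869.83, 817.11 and 881.18 in vehicle livers. For Ifih1 the 4 TS-2 mice straddled the vehicle mice, and the 95% interval of the log2 difference ran from -0.82 to 0.84. Zbp1 at 16 h had 34.01, 84.59 and 90.83 in TS-2 livers, against 330.27, 121.38 and 200.4 in vehicle livers. All 3 TS-2 mice lay below the vehicle mice, with a log2 difference of -1.65 ± 0.65 (limma adjusted p = 0.915). For Ifih1 at 16 h they also lay below, at 630.57 to 791.71 against 903.22 to 1118.09 in vehicle livers. Its log2 difference of -0.61 did not pass. How many of all genes lay apart at 16 h was not counted either.

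In TS-2 livers at 72 h, mouse 3 was the highest mouse for 8 of the 10 members. Dhx58 showed it, with 62.43, 62.43, 171.69 and 56.17 in TS-2 livers, against 62.43 to 65.01 in vehicle livers. The other TS-2 mice lay within or just below the vehicle range. The summed intensity of 21 classical interferon-stimulated genes was 29610 in this mouse and 17540 to 22610 in the other TS-2 mice.

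After 1 dose of HTS-3, 0 members passed at 8 h or 16 h, where 0.588% and 7.35% of all genes were called in either direction by limma. At an unadjusted p of 0.05, 2 members were under the threshold at each time, as were 2066 and 3348 of all 18194 genes. Zbp1 at 8 h had 1189.23, 132.14 and 155.26 in HTS-3 livers, against 104.98, 117.84 and 117.71 in vehicle livers. The HTS-3 mice were all above the vehicle mice, 1 of them far above, and the log2 difference of 1.36 ± 0.65 had a limma adjusted p of 0.429. The mouse at 1189.23 was the highest of the 3 for 8 of the 10 members. Its Kupffer cell markers summed to 41450, against 26920 and 24300 in the other HTS-3 mice, and the part of this in the result was not tested.

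At 16 h Zbp1 had 181.79, 27.58, 100.15 and 35.27 in HTS-3 livers, against 330.27, 121.38 and 200.4 in vehicle livers. The highest HTS-3 mouse overlapped the vehicle mice, and the log2 difference of -1.63 ± 0.61 had a limma adjusted p of 0.114. Without that mouse, HTS-3 mouse 1, Zbp1 passed as lower and the count of members called was 1. Likewise, without HTS-3 mouse 3 at 8 h, the mouse whose labels disagree on the time, 1 member passed, Myd88. Myd88 at 8 h had 482.36, 304.69 and 189.67 in HTS-3 livers, against 198.7, 227.79 and 224.65 in vehicle livers, so mouse 3 was the only HTS-3 mouse below the vehicle range.

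At 16 h, Ddx58 had 258.49, 256.91, 236.43 and 669 in HTS-3 livers, against 226.32, 258.49 and 268.61 in vehicle livers. Mouse 4 of the HTS-3 group was far above the rest, and it was the highest of its group for 6 of the 10 members. Its log2 ratio of the 3' to the 5' Actb control probe sets, a sign of RNA quality, was 1.15, the lowest of the group, against 1.49 to 1.77 in the other HTS-3 mice.

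Gapmers were also compared with each other at matched times and dose. TS-2 livers at 8 h had lower values than NTS-1 livers for the same 6 members that NTS-1 raised, where 0.506% of all genes were called lower. The log2 differences were -2.05 ± 0.30 for Ddx58, -1.89 ± 0.40 for Ifih1, -2.99 ± 0.32 for Dhx58, -3.31 ± 0.61 for Zbp1, and -2.66 ± 0.53 for Eif2ak2. Ddx60 was dim in every TS-2 liver, so it is given as at least 4.80-fold lower in TS-2 livers, with their values taken as 32 (limma adjusted p = 3.54e-09). The largest limma adjusted p of these was 0.0182, for Ifih1, a call that was lost without any 1 of 4 mice (NTS-1 mouse 2 or 3, TS-2 mouse 1 or 2). These comparisons use the same NTS-1 arrays as those against vehicle and are not separate evidence on NTS-1.

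Dhx58 makes the contrast plain, at 56.03 to 59.37 in the 4 TS-2 livers at 8 h, against 364.44 to 571.71 in the NTS-1 livers. At 16 h Dhx58 (-2.78 ± 0.32, limma adjusted p = 9.96e-06) and Zbp1 (-3.69 ± 0.61, limma adjusted p = 0.00169) were lower in TS-2 than in NTS-1 livers, where 0.225% of all genes were called lower. Ddx60 also passed as lower (limma adjusted p = 0.0294), but it was dim in all 3 TS-2 livers and in 3 of the 4 NTS-1 livers, so no size is given. The Ddx60 call was lost without any 1 of 5 mice. When only the compared mice were fitted 1 member passed at 16 h, and with array weights 6 did. Of 10 Kupffer cell markers 0 passed between TS-2 and NTS-1 livers at 8 h or 16 h, and of 9 monocyte and macrophage markers 1 was lower at each time. At 72 h 0 members passed between TS-2 and NTS-1, where 0.17% of all genes were called in either direction by limma. At an unadjusted p of 0.05, 1 member was under the threshold, as were 1134 of all 18194 genes.

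HTS-3 livers had lower values than NTS-1 livers for 3 members at 8 h, where 0.5% of all genes were called lower. These were Ddx58 (-1.81 ± 0.32, limma adjusted p = 0.00163), Dhx58 (-3.13 ± 0.345, limma adjusted p = 2.51e-06) and Ddx60, which was dim in every HTS-3 liver and so at least 4.80-fold lower in them (limma adjusted p = 1.83e-08). Eif2ak2 was not called at 8 h on the probe set used. With each probe set as a separate feature, a choice made after seeing the data, that one had -2.24 ± 0.57 (limma adjusted p = 0.093). Its further probe sets passed as lower (-1.85 ± 0.37 and -2.92 ± 0.59, limma adjusted p = 0.0107 and 0.0115). HTS-3 mouse 3 was dim on all of them. When only the compared mice were fitted 0 members passed at 8 h, and with array weights 7 did. At 16 h Dhx58 (-2.40 ± 0.30, limma adjusted p = 1.79e-06) and Zbp1 (-3.67 ± 0.57, limma adjusted p = 4.1e-05) were lower, where 4.46% of all genes were called lower. Ddx60 passed as lower too (limma adjusted p = 0.000857), with all 4 HTS-3 livers and 3 of the 4 NTS-1 livers dim, so no size is given. The count at 16 h was 1 when only the compared mice were fitted and 5 with array weights.

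Cell markers moved with the 16 h comparison of HTS-3 and NTS-1. Of 10 Kupffer cell markers 5 were lower, with summed intensities of 11810 to 19790 in HTS-3 livers and 28480 to 31960 in NTS-1 livers. Of 9 monocyte and macrophage markers 3 were lower, with sums of 3565 to 5461 in HTS-3 livers and 5637 to 8749 in NTS-1 livers. Of 8 sinusoidal endothelial markers 3 were lower and 1 higher, with sums of 5936 to 9122 in HTS-3 livers and 9958 to 11700 in NTS-1 livers. Markers also differed between HTS-3 and vehicle livers at 16 h, where 7.35% of all genes were called in either direction. There 3 of the 10 Kupffer cell and 1 of the 9 monocyte and macrophage markers were lower. Of the 8 sinusoidal endothelial markers 4 were lower and 1 higher. The part of these cells in the sensor differences was not tested.

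Between HTS-3 and TS-2, 0 members passed at 8 h or 16 h, where 0.264% and 5.95% were called in either direction by limma. At an unadjusted p of 0.05, 0 members at 8 h and 2 at 16 h were under the threshold, where 1180 and 2702 of all 18194 genes were. The intervals were wide: for Zbp1 at 8 h the log2 difference of HTS-3 from TS-2 had a 95% interval of -0.36 to 2.15, which does not show that the gapmers act alike.

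**Figure D3:**
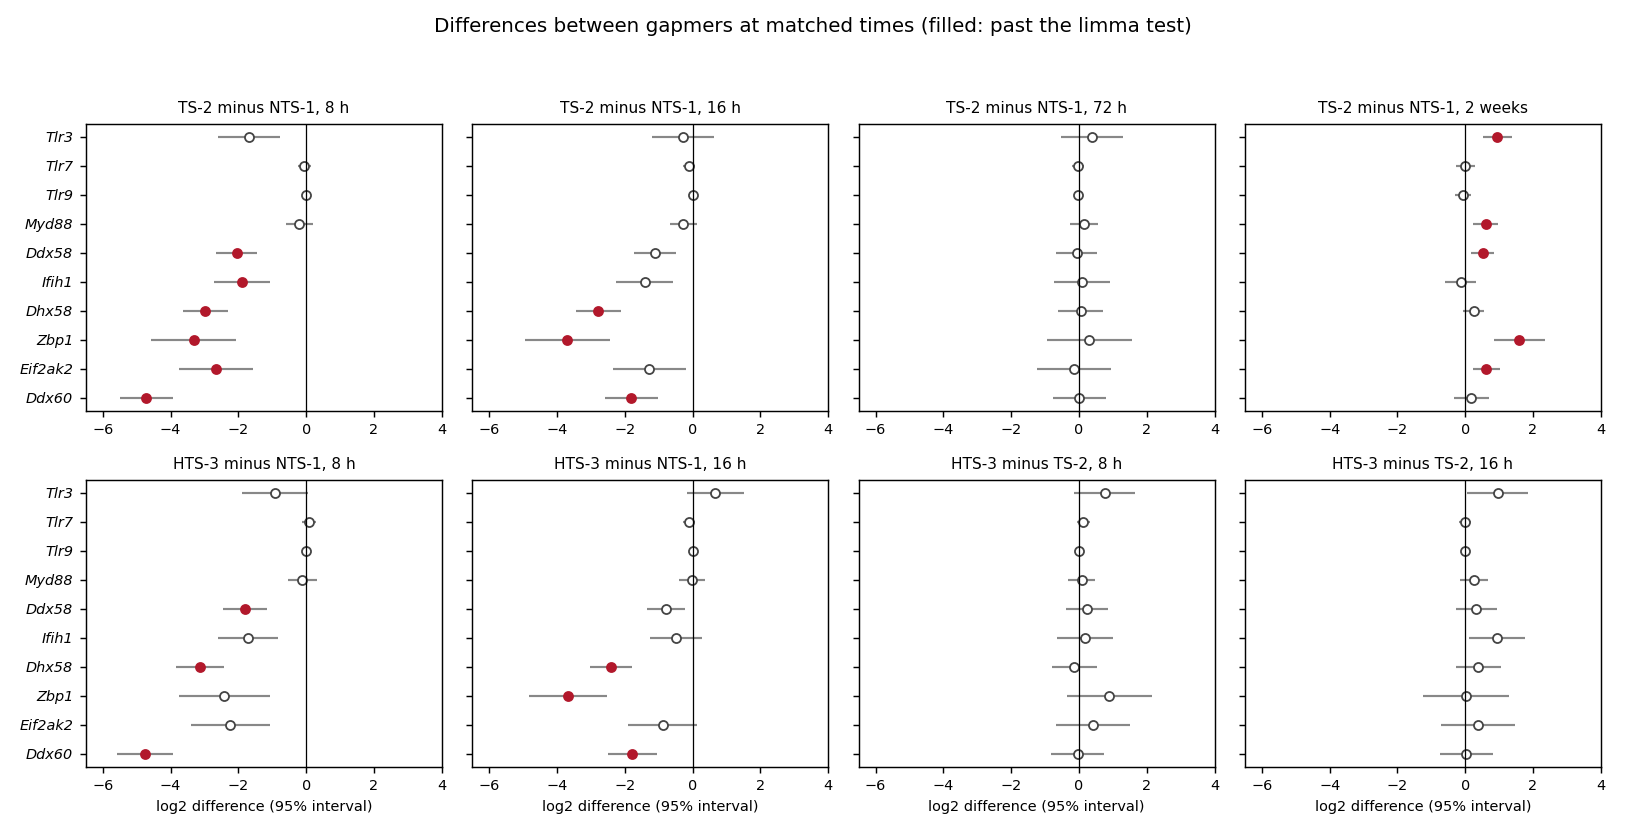
Log2 differences of each sensor between gapmers at the same time, with 95% intervals (filled symbols passed the limma test at an adjusted p of 0.05; Ddx60 was dim in every single-dose TS-2 and HTS-3 liver). Filled symbols lie below 0 in the TS-2 and HTS-3 comparisons with NTS-1 at 8 h and 16 h and above 0 for 5 members in TS-2 minus NTS-1 at 2 weeks.

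After 2 weeks of dosing 5 of the 10 members, Tlr3, Myd88, Ddx58, Dhx58 and Zbp1, were higher in TS-2 than in vehicle livers. In that comparison 22.8% of all genes were called higher and 37.4% in either direction, so many genes besides the sensors passed. The median log2 change was 0.36 over the members and -0.01 over all genes.

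**Figure D4:**
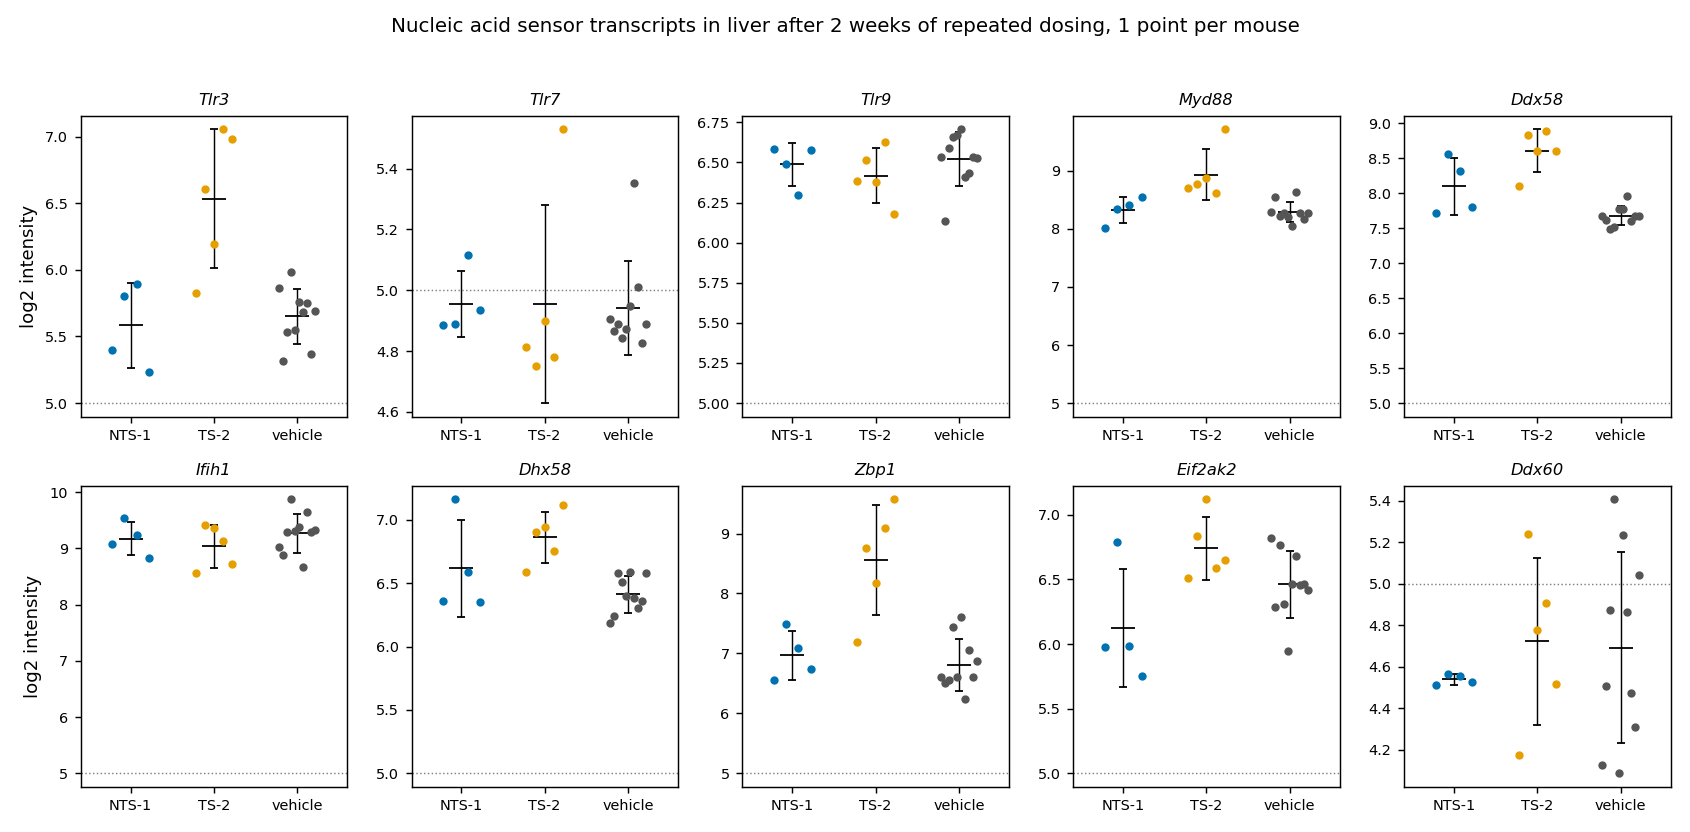
Log2 intensity of each sensor after 2 weeks of dosing in NTS-1, TS-2 and vehicle livers (points are mice, bars the mean ± SD, the dotted line the log2 of 32). The TS-2 points of Ddx58 lie above every vehicle point, those of Tlr3, Myd88, Dhx58 and Zbp1 lie above most of them, and the groups of Tlr7, Tlr9, Ifih1 and Ddx60 overlap throughout.

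Tlr3, the endosomal receptor of double-stranded RNA, had 56.76, 97.63, 73.15, 132.87 and 126.07 in TS-2 livers, against 39.92 to 63.17 (median 51.5) in vehicle livers. Only TS-2 mouse 1 fell within the vehicle range, and the log2 change was 0.88 ± 0.17 (5 against 10 mice, 1.84-fold, limma adjusted p = 0.00045). Myd88 had 415.05, 435.79, 468.68, 394.31 and 840.85 in TS-2 livers, against 265.62 to 395.89 (median 309.41) in vehicle livers. TS-2 mouse 4 fell just inside the vehicle range and mouse 5 was well above the others, with a log2 change of 0.64 ± 0.14 (1.56-fold, limma adjusted p = 0.00151).

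Ddx58 had 275.33, 455.29, 389.81, 473.97 and 390.13 in TS-2 livers, against 180.14 to 248.33 (median 204.64) in vehicle livers. These groups did not overlap, and the log2 change was 0.93 ± 0.13 (1.91-fold, limma adjusted p = 2.92e-05). Dhx58 had 96.42, 119.73, 122.92, 107.84 and 139.06 in TS-2 livers, against 72.95 to 96.42 (median 83.92) in vehicle livers. The lowest TS-2 mouse met the highest vehicle mouse, and the log2 change was 0.45 ± 0.12 (1.36-fold, limma adjusted p = 0.0057).

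Zbp1 had 146.18, 432.52, 287.87, 545.06 and 759.89 in TS-2 livers, against 75.64 to 195.91 (median 97.91) in vehicle livers. TS-2 mouse 1 alone overlapped the vehicle mice, and the log2 change of 1.74 ± 0.29 was the largest of the 10 members in this comparison (3.35-fold, limma adjusted p = 0.000123). TS-2 mouse 1 was not the highest mouse of its group for any member. All 5 calls remained when each of the 15 mice was left out in turn.

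The other members did not pass. Ifih1 had 380.32 to 680.86 in TS-2 livers and 408.73 to 938.07 in vehicle livers, with a 95% interval of the log2 difference from -0.60 to 0.14. Tlr9, which was measured above 32 in all repeated-dose livers, had 72.56 to 99.05 in TS-2 livers and 70.4 to 104.45 in vehicle livers (95% interval -0.30 to 0.09). Tlr7 reached 32 in 1 of 5 TS-2 livers and 2 of 10 vehicle livers, and Ddx60 in 1 and 3 of them, so both were mostly dim. Eif2ak2 had 91.06 to 139.09 in TS-2 livers and 61.63 to 113.27 in vehicle livers (log2 difference 0.28 ± 0.16, limma adjusted p = 0.172).

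Repeated NTS-1 dosing changed 0 members by limma, where 4.91% of all genes were called in either direction. At an unadjusted p of 0.05, 1 member was under the threshold, as were 2934 of all 14454 genes. That member was Ddx58, with 210.86, 378.01, 318.12 and 223.47 in NTS-1 livers, against 180.14 to 248.33 in vehicle livers. NTS-1 mice 2 and 3 were above the vehicle range and mice 1 and 4 within it (log2 difference 0.42 ± 0.15, limma adjusted p = 0.0934).

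Set against NTS-1 at 2 weeks, TS-2 livers had higher values of 5 members, where 14.1% of all genes were called higher. These were Tlr3 (0.95 ± 0.21, limma adjusted p = 0.00452), Zbp1 (1.59 ± 0.36, limma adjusted p = 0.00521), Myd88 (0.60 ± 0.18, limma adjusted p = 0.0204), Eif2ak2 (0.62 ± 0.19, limma adjusted p = 0.0277) and Ddx58 (0.51 ± 0.16, limma adjusted p = 0.034). Leaving out 1 mouse changed the count to between 2 and 6, with Eif2ak2 and Ddx58 each lost without any 1 of 5 mice and Myd88 without NTS-1 mouse 1. When only the compared mice were fitted 2 members passed, and with quantile normalization 3 did.

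Cell markers were read at 2 weeks as well, where 22.8% of all genes were called higher and 37.4% in either direction. Of 8 monocyte and macrophage markers tested, 3 (Cd14, Lgals3, Cd68) were higher in TS-2 than in vehicle livers, with summed intensities of 1538, 2683, 3383, 3039 and 15770 in the TS-2 livers and 1159 to 4020 in vehicle livers. The sum was highest in TS-2 mouse 5, also the highest mouse for Myd88, Zbp1 and Dhx58, and the 5 calls remained without it. Of 8 sinusoidal endothelial markers 6 were lower, with sums of 1096 to 2697 in TS-2 livers and 2550 to 4414 in vehicle livers. Over all genes 2104 of 14454 were called lower, and after 2 weeks of NTS-1 3 of the 8 were lower than in vehicle livers. After TS-2, 1 of 10 Kupffer cell markers was higher, 0 of 5 B cell markers passed and 1 of 6 T and NK cell markers was lower. Of 7 plasmacytoid dendritic cell markers tested 2 were higher, Ly6d and Tcf4, while Ccr9, Pacsin1 and Spib were dim in both groups. The sums were 616.3 to 5087 (median 790.1) in TS-2 livers and 535.4 to 602.3 (median 586.1) in vehicle livers. The part of these cells in the sensor changes was not tested.

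Other probe sets of the same genes were compared as separate features, a choice made after seeing the data. After NTS-1 at 8 h, 1 further probe set of Ddx58 rose, with 74.06, 98.3 and 51.13 in NTS-1 livers, against 17.04, 16.9 and 24.59 in vehicle livers (limma adjusted p = 0.0398). A further one of Dhx58 rose too, with 78.48, 191.26 and 98.56 in NTS-1 livers, against at most 4.73 in vehicle livers (limma adjusted p = 7.65e-07). That of Zbp1 had 140.37, 107.18 and 17.8 in NTS-1 livers, against 4.73 in each vehicle liver (limma adjusted p = 0.000156). The vehicle livers, and 1 NTS-1 liver for Zbp1, were dim on these probe sets, so no fold is given. Both further probe sets of Eif2ak2 rose. The remaining further probe sets of Ddx58, Dhx58, Ddx60, Tlr3 and Tlr7 did not pass, and all were dim in every liver of both groups.

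After 2 weeks of TS-2, further probe sets of Ddx58 (0.61 ± 0.11, limma adjusted p = 0.000418) and Zbp1 (1.25 ± 0.23, limma adjusted p = 0.000354) rose. That of Tlr3 passed as well (limma adjusted p = 0.00977), dim in 4 of 5 TS-2 livers and in all vehicle livers. Neither further probe set of Dhx58 passed (limma adjusted p = 0.0997 and 0.651), the first of them dim in every liver. The remaining one of Ddx58 did not pass either (limma adjusted p = 0.814) and was dim in all 5 TS-2 livers. The probe sets of Eif2ak2 disagreed. Its brightest did not pass, while a further one passed (limma adjusted p = 0.000166) with 33.27, 54.86, 64.65, 68.92 and 62.09 in TS-2 livers, against 12.91 to 30.99, all dim, in vehicle livers. The other further one passed too (limma adjusted p = 0.00128), with 30.8 to 45.97 in TS-2 livers and 21.58 to 36.8 in vehicle livers.

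**Figure D5:**
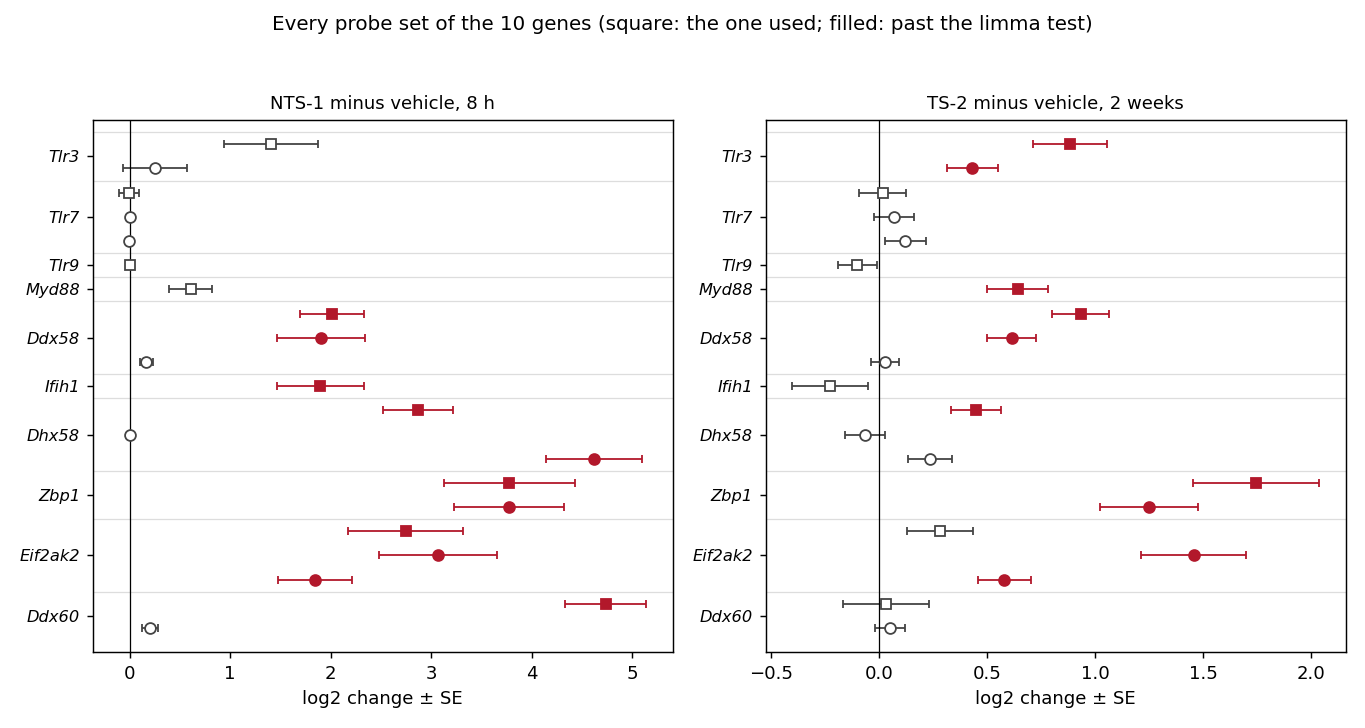
Log2 changes against vehicle ± SE for every probe set of the sensors after NTS-1 at 8 h and after TS-2 at 2 weeks (filled symbols passed the limma test). For Ddx58, Dhx58 and Ddx60 1 probe set, dim after NTS-1 at 8 h, stays near 0 in both comparisons while another rises after NTS-1.

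The genes downstream and upstream of the sensors came from lists chosen with earlier results of these data known. Of 18 measured adaptors and kinases, 1 rose after NTS-1 at 8 h, Irf7, the interferon-inducible transcription factor of TLR7 and TLR9 signalling (4.46 ± 0.41, limma adjusted p = 5.84e-08). The list's median log2 change was -0.01. At 16 h Irf7 was again the only one (4.16 ± 0.38). Of 18 other nucleic acid sensors, 3 rose at 8 h: Oas1a, a synthetase activated by double-stranded RNA (4.26 ± 0.28), Ifit1, which binds RNA lacking 2'-O methylation (7.32 ± 0.85), and Ifi204, a DNA sensor. Ifi204 was dim in every vehicle liver and in 1 NTS-1 liver, so it is given as at least 1.28-fold. At 16 h the same 3 passed, Oas1a at 2.74 ± 0.26, Ifit1 at 3.77 ± 0.80 and Ifi204 dim in every liver of both groups. After HTS-3 at 16 h 2 of the 18 fell, Dhx36 (-1.76 ± 0.28, limma adjusted p = 8.8e-05) and Oas1a (-0.97 ± 0.26, limma adjusted p = 0.0201).

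Of 16 interferon ligands and receptors, 0 passed after a single dose of any gapmer against vehicle at 8, 16 or 72 h by limma, and only 6 of the 16 reached 32 on at least 3 arrays. Of 19 NF-kappaB and inflammatory targets, 0 passed in those comparisons, and 6 reached 32. Of 21 classical interferon-stimulated genes, 20 rose after NTS-1 at 8 h and 9 at 16 h, with median log2 changes of 3.54 and 1.73. After a single dose of TS-2 0 of the 21 passed by limma at any time, with medians of 0.13, -0.54 and 0.23 at 8, 16 and 72 h. After HTS-3 0 passed at 8 h, with a median of 1.06, and 1 fell at 16 h, Trim30a (-1.17 ± 0.33, limma adjusted p = 0.024).

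After 2 weeks of TS-2, 7 of 18 adaptors and kinases rose and 1 fell, where 22.8% of all genes were called higher and 37.4% in either direction. Irak1, a kinase downstream of MyD88, rose by 0.79 ± 0.10, Trim25 and Rnf135, ubiquitin ligases acting on RIG-I, by 1.18 ± 0.17 and 0.65 ± 0.11, Mavs by 0.58 ± 0.11 and Irf3 by 0.47 ± 0.10, while Prkra, a protein activator of PKR, fell by 0.72 on the log2 scale. Against the same shares of all genes, 7 of 16 other nucleic acid sensors rose and 1 fell, Ifit1 (2.18 ± 0.36), Dhx9 (0.97 ± 0.16) and Adar (0.64 ± 0.12) among those that rose. Of 11 interferon ligands and receptors 3 rose, the receptor chains Ifnar2 (0.36 ± 0.07), Ifnar1 (0.38 ± 0.11) and Il10rb (0.69 ± 0.23). Of 14 NF-kappaB and inflammatory targets 3 rose, Icam1 (1.16 ± 0.20), Tnfaip3 (0.98 ± 0.29) and Nfkbia (0.50 ± 0.17), and Il1a fell by 0.25 on the log2 scale. Of 20 classical interferon-stimulated genes 16 rose, with a median log2 change of 0.80. After 2 weeks of NTS-1 only Mavs passed among the adaptors (0.45 ± 0.12, limma adjusted p = 0.0371), and 0 of the 20 interferon-stimulated genes did.

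Across the 37 single-dose arrays the gene with the most similar profile was found for each member. By Pearson's r it was Oasl1 for Ddx58 (0.929), Herc6 for Ifih1 (0.89), Rsad2 for Dhx58 (0.942), Rtp4 for Zbp1 (0.909), Tor1aip1 for Eif2ak2 (0.903) and Mx2 for Ddx60 (0.949). The member Ddx58, left out here, had a higher r with Eif2ak2 (0.919). Zc3hav1 was the most similar to Tlr3 (0.895) and Irgm1 to Myd88 (0.76). For the dim Tlr7 and Tlr9 they were Vsig1 (0.92) and Kcnk3 (0.973), over values with little spread. These are descriptions over arrays that share their normalisation and include the same 7 NTS-1 livers of 8 and 16 h.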

How the data were processed

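Liver RNA of 56 mice was measured on Affymetrix arrays of 45101 probe sets, 37 single-dose and 19 repeated-dose. The authors deposited RMA values, per the submitters' processing notes, on a linear intensity scale (RMA version: not given in the sources used here). Intensities were converted to log2. Of the probe sets, 34958 were annotated to 1 gene, 932 to several and 9211 to none.

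Each gene was represented by its probe set of highest mean. To be tested, a gene had to reach an array's 40th percentile in 3 or more mice of a set, which kept 18194 genes in the single-dose set, none being removed since 44.1 to 47.3% of its probe sets share the lowest value, and 14454 in the repeated-dose set. Models were fitted per set, over all groups, with limma 3.58.1 in R 4.3.3, Benjamini-Hochberg adjustment and a threshold of 0.05. On simulated data for NTS-1 against vehicle at 8 h (18194 genes), 54% of 2-fold and 89% of 4-fold changes were recovered. For TS-2 against vehicle at 2 weeks (14454 genes) 89% and 99% were, with 8 false calls. These rates do not cover genes that were dim in vehicle livers. The number of arrays limits the precision.

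All 10 members are reported, with values per mouse for those past the test against vehicle. Genes of other lists are named by the smallest adjusted p, at most 6 a list and comparison. The members, lists and tests were chosen with earlier results of these data known. Same-numbered mice deviated together, with correlations over 0.1 in every pair, only in TS-2 against vehicle at 8 h (0.104 to 0.445), where 0 members passed with or without the replicate number as a block. Alternatives changed the probe set rule, filter, normalization, weights, samples fitted, block and mice. The 21 comparisons share arrays.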

Additional observations from a re-analysis of the deposited data

Results flagged for a closer look

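In 8 of 57 sets of 1 member in 1 group of 4 to 10 mice, a mouse lay far from the others of its group by Dixon's criterion, and chance gives about 1 in 20 such sets. TS-2 mouse 3 at 72 h was distant for 3 members. It had a Tlr3 intensity of 57.1 where the other TS-2 mice had 21.12 to 22.91, a Myd88 intensity of 460.49 where they had 308.68 to 310.21, and a Dhx58 intensity of 171.69 where they had 56.17 to 62.43. Some of these values recurred on arrays of other groups, 310.21 for Myd88 on 11 of the 37 single-dose arrays, 62.43 for Dhx58 on 6 and 22.91 for Tlr3 on 5. The narrow spread of the other mice, on which the criterion and its chance rate rest, includes such repeated values, and how they arose was not tested. At 16 h, HTS-3 mouse 4 had a Ddx58 intensity of 669 where the other HTS-3 mice had 236.43 to 258.49.

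After 2 weeks, TS-2 mouse 5 had a Myd88 intensity of 840.85 where the other TS-2 mice had 394.31 to 468.68, and a Tlr7 intensity of 46.17 where they had 26.91 to 29.84. Vehicle mouse 7 had a Tlr7 intensity of 40.86 where the other vehicle mice had 28.38 to 32.27. Vehicle mouse 2 had a Tlr9 intensity of 70.4 where the other vehicle mice had 85.02 to 104.45.

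The effect of NTS-1 differed between times by a test of the difference itself. The log2 difference of effects was -3.23 for Ddx60 from 8 to 16 h, -4.30 for Ddx60 from 8 to 72 h and -2.62 for Dhx58 from 8 to 72 h. Ddx60 was dim in every vehicle liver of these times and in the NTS-1 livers at 72 h, so its 2 values rest on intensities under 32 and are not measured sizes.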

How the results depend on the processing

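Across the alternatives, 0 values of the 35 member calls changed direction. With only the compared groups fitted, 0 members passed in NTS-1 against vehicle at 8 h and 16 h, in HTS-3 against NTS-1 at 8 h and in the NTS-1 effect at 16 h minus 8 h, 1 in TS-2 and in HTS-3 against NTS-1 at 16 h, and 2 in TS-2 against NTS-1 at 2 weeks. This fit uses fewer samples. With array weights, 5 members passed in NTS-1 against vehicle at 16 h, 1 at 2 weeks, 6 in TS-2 against NTS-1 at 16 h, 1 at 72 h, 7 in HTS-3 against NTS-1 at 8 h and 5 at 16 h. Quantile normalization gave 2 in NTS-1 against vehicle at 16 h and 3 in TS-2 against NTS-1 at 2 weeks. Averaging all probe sets per gene, or filtering at 32, gave 5 in HTS-3 against NTS-1 at 8 h. With the replicate number as a block, 1 member passed in TS-2 against NTS-1 at 2 weeks in place of 5, and 5 of the 35 calls were lost, in a design where the numbers were not shown to pair the mice. The cause of these moves was not tested. Leaving out 1 mouse gave 4 to 5 members in NTS-1 against vehicle at 8 h, 5 in TS-2 against vehicle at 2 weeks, 5 to 6, 2 to 3 and 2 to 6 in TS-2 against NTS-1 at 8 h, 16 h and 2 weeks, 3 to 6 and 3 to 4 in HTS-3 against NTS-1 at 8 h and 16 h, 0 to 1 in HTS-3 against vehicle at both times and against TS-2 at 16 h, 2 to 3 in the NTS-1 effect at 72 h minus 8 h and 0 to 1 in the HTS-3 effect at 16 h minus 8 h. Without any 1 mouse, 28 of 305 values fell short of the threshold. Moving the HTS-3 mouse with conflicting labels to 16 h kept all 6 member calls it touched. The fit of each probe set as a feature, chosen after seeing the data, kept 35 of 35. This count covers only the probe set already used for each gene, so it does not test the other probe sets. Dim signal limits Tlr7, Tlr9 and Ddx60.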

Other observations

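Several sensors had the same intensity on many single-dose arrays of different groups. Myd88 was at 310.21 on 11 of 37 arrays in 8 groups, Ddx60 at 5.7 on 13 arrays in 7 groups, Tlr7 at 4.65 on 22 arrays in 11 groups and Dhx58 at 62.43 on 6 arrays in 4 groups. Ifih1 had 37 distinct values on these arrays. On the 19 repeated-dose arrays Myd88 and Ifih1 had 19 distinct values each. No pair of arrays held identical values throughout.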
